A study of Mus musculus with 4 samples.

Results

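The TRBJ2 segments are the joining segments of the downstream D-J-C cluster of the mouse T-cell receptor beta locus. All productive beta-chain contigs named with TRBJ2-1, TRBJ2-2, TRBJ2-3, TRBJ2-4, TRBJ2-5 or TRBJ2-7 were taken from 2 receptor libraries, so membership rested on the deposited segment name alone. These are 6 of the 123 receptor segments found in the series. They were carried by 50 of the 70 control cells and 95 of the 148 ATRA cells with a productive beta chain (TRB). These cells held 51 and 100 TRBJ2 contigs, with 220 and 853 unique molecular identifiers (UMIs, tags that mark single captured RNA molecules).

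Both libraries came from C57BL6 mice that had received 50000 glioma neurosphere cells in the striatum at 6 weeks of age. The treated group was given all-trans retinoic acid (ATRA, a vitamin A derivative that binds nuclear receptors) at 10 mg/kg into the peritoneum on alternate days, and the other group its control, whose vehicle the labels do not name. Animals were killed when they showed signs of central nervous system disease, so the time under treatment was not fixed. TRBJ2 contigs were shallower in control, with a median of 4 UMIs, than in ATRA, with 7. Tumor and surrounding brain were dissociated, CD45-positive immune cells were sorted, and 5-prime single-cell libraries were made. Each treatment had 1 receptor library and the number of mice in it was not given, so no test between treatments was possible and no p-value is given. Gene expression from the same tumors was not analysed here, and the cells are T cells by their rearranged receptor only. Intervals are exact 95% intervals for counting error. Variation among animals is not in them, and the cells of a clone are not separate draws.

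A beta chain is built by joining a D segment to a J segment and then a V segment to the DJ unit. The J segment supplies the end of the CDR3, the loop that spans the junctions and contacts the peptide, and the framework strand after it. Enzymes remove bases from the segment ends and add untemplated bases before ligation. How far the J sequence reaches back from the CDR3 end therefore reflects how much of it was kept. CDR3 length also depends on V, D and added bases. Because TRBD1 lies before both J clusters and TRBD2 lies between them, TRBJ2 segments can join either D segment by deletion while TRBJ1 segments join TRBD1.

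In the RefSeq annotation of GRCm38.p6 the 6 segments lay on chromosome 6 between 41542754 and 41543856, a span of 1103 bases. TRBD2 lay just before them at 41542163 to 41542176, and the last TRBJ1 segment, TRBJ1-6, ended at 41535606. In order, TRBJ2-1 was at 41542754 to 41542803, TRBJ2-2 at 41542957 to 41543007, TRBJ2-3 at 41543223 to 41543271, TRBJ2-4 at 41543362 to 41543410, TRBJ2-5 at 41543453 to 41543501 and TRBJ2-7 at 41543810 to 41543856. All are annotated as J segments, and TRBJ2-6, which lies between TRBJ2-5 and TRBJ2-7 at 41543598 to 41543645, is annotated as a pseudogene. All 6 names matched RefSeq.

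The CDR3 ends that these segments leave in the data show how they differ. They were read from the deposited CDR3 nucleotides by counting back from the last base of the CDR3 for as long as more than 75% of the distinct rearrangements of the segment carried 1 base. A rearrangement here is a TRBV name, a TRBJ name and a CDR3 nucleotide sequence. The shared ends follow, 5′ to 3′, each closing with the codon of the conserved phenylalanine.
TRBJ2-1: tatgctgagcagttcttc
TRBJ2-2: aacaccgggcagctctacttt
TRBJ2-3: gcagaaacgctgtatttt
TRBJ2-4: aaaacaccttgtacttt
TRBJ2-5: aagacacccagtacttt
TRBJ2-7: tatgaacagtacttc
The shared end was 18 bases for TRBJ2-1 and TRBJ2-3, 21 for TRBJ2-2, 17 for TRBJ2-4 and TRBJ2-5, and 15 for TRBJ2-7. Germline J bases upstream of it are not counted, so bases missing from it are a lower bound on the trimming of a segment.

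The most frequent rearrangements are shown next, since the clone-size results turn on them. Each is the largest of its segment and library with at least 2 cells, and capitals mark the part of the shared J end that was kept.
TRBJ2-1 with TRBV29, 6 control cells: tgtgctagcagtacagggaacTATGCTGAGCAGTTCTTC
TRBJ2-1 with TRBV26, 8 ATRA cells: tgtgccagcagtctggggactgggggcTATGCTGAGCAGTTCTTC
TRBJ2-2 with TRBV5, 2 control cells: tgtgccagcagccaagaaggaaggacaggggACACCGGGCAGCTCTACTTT
TRBJ2-3 with TRBV13-1, 2 control cells: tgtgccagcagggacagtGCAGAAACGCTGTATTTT
TRBJ2-3 with TRBV12-2+TRBV13-2, 2 ATRA cells: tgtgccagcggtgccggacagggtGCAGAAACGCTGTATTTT
TRBJ2-4 with TRBV5, 8 ATRA cells: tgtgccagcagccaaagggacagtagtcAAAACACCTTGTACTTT
TRBJ2-7 with TRBV13-1, 5 ATRA cells: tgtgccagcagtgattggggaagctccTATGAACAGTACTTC
No TRBJ2-5 rearrangement was found in more than 1 cell of either library. Of these 7 rearrangements, the TRBV5 and TRBJ2-2 one had lost 1 base of its shared end and the other 6 had it whole.

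The first comparison was how often each segment was used. TRBJ2-1 was the leading TRBJ2 segment in both libraries and TRBJ2-7 the second, while TRBJ2-4 was the rarest in control and ranked just after TRBJ2-7 in ATRA. TRBJ2-1 was used by 21 control cells, 30.0% (19.6 to 42.1), and 45 ATRA cells, 30.4% (23.1 to 38.5). TRBJ2-7 was used by 10 control cells, 14.3% (7.07 to 24.7), and 19 ATRA cells, 12.8% (7.91 to 19.3). Their ratios of ATRA to control were 1.01 (0.591 to 1.79) for TRBJ2-1 and 0.899 (0.398 to 2.16) for TRBJ2-7, so no difference was detectable at this depth in either. Over cells the intervals of TRBJ2-1 and TRBJ2-7 did not overlap in ATRA and did overlap in control. Over distinct rearrangements they overlapped in ATRA too, at 17.1 to 33.8 for TRBJ2-1 and 6.94 to 19.9 for TRBJ2-7.

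The other 4 segments were each used by 1 to 13 cells per library. TRBJ2-2 was used by 7 control cells, 10.0% (4.12 to 19.5), and 6 ATRA cells, 4.05% (1.5 to 8.61), a ratio of 0.405 (0.113 to 1.41). TRBJ2-4 was used by 1 control cell, 1.43% (0.0362 to 7.70), and 13 ATRA cells, 8.78% (4.76 to 14.6), a ratio of 6.15 (0.924 to 261). These were the 2 of 6 members whose shares differed at least 2-fold, 1 in each direction, and both ratio intervals included 1. As a share of TRBJ2 cells alone, a denominator that is smaller in both libraries, TRBJ2-4 made up 2.00% (0.0506 to 10.6) of 50 in control and 13.7% (7.49 to 22.3) of 95 in ATRA. The interval of that ratio, 6.84 (1.03 to 291), did not include 1, but 8 of the 13 ATRA cells were 1 clone and so not separate draws. Of all 26 alpha and beta segments with at least 10 cells, 7, or 26.9%, differed as much: 15.4% were higher and 11.5% lower in ATRA. These 26 include the 6 members, and the 7 include TRBJ2-2 and TRBJ2-4. TRAJ34, with 0 control and 17 ATRA cells, was not counted among the 7. Its ratio of 1.45 is only a lower bound because its 0 was set to a count limit, so 26.9% may be too low. The members' count of 2 of 6 was near this share, which is not an independent background.

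TRBJ2-3 and TRBJ2-5 lay between these. TRBJ2-3 was used by 6 control cells, 8.57% (3.21 to 17.7), and 8 ATRA cells, 5.41% (2.36 to 10.4). TRBJ2-5 was used by 5 control cells, 7.14% (2.36 to 15.9), and 8 ATRA cells, 5.41% (2.36 to 10.4). Their ratios were 0.631 (0.192 to 2.21) and 0.757 (0.218 to 2.94). Among the 4 less used segments, neighbours in the order of shares had overlapping intervals within each library.

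**Figure D1:**
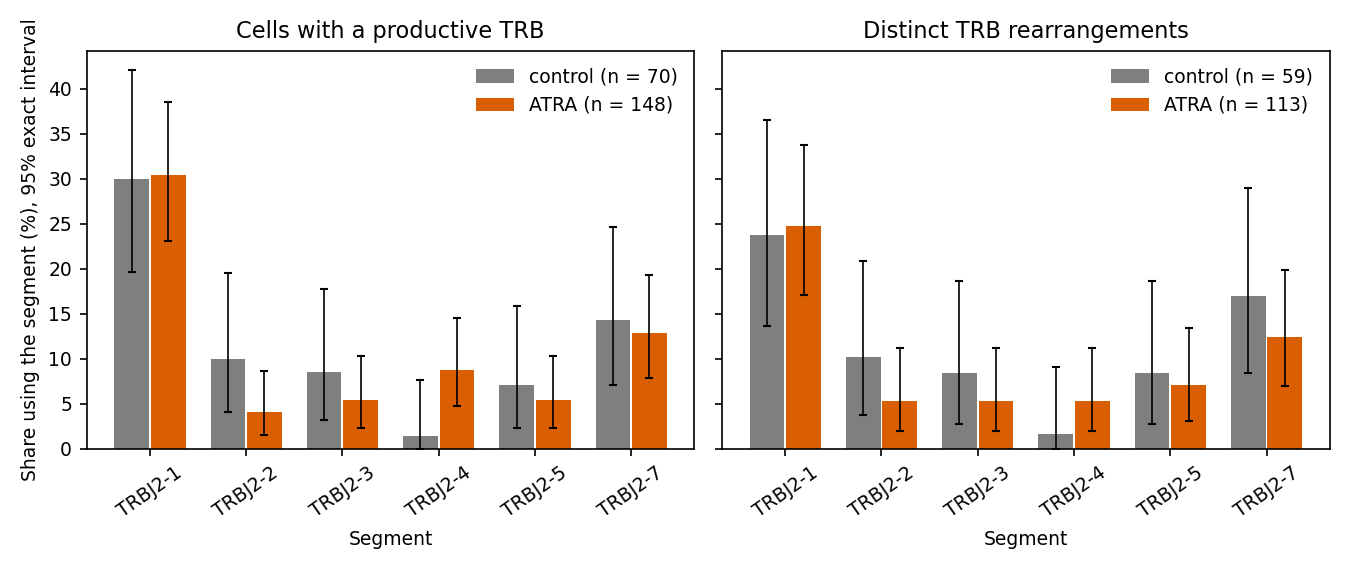
Share of control (grey) and ATRA (orange) cells with a productive TRB, left, and of distinct rearrangements, right, that used each TRBJ2 segment, in percent, with exact 95% intervals as bars. TRBJ2-1 is at about equal height in both libraries, and the gap between the libraries at TRBJ2-4 is smaller over rearrangements than over cells.

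Counting each rearrangement once changed the picture mainly for TRBJ2-4. The control library held 41 TRBJ2 rearrangements of 59 in all, and the ATRA library 68 of 113. TRBJ2-4 made up 1 control rearrangement, 1.69% (0.0429 to 9.09), and 6 ATRA rearrangements, 5.31% (1.97 to 11.2), so its ratio fell from 6.15 to 3.13 (0.380 to 144). TRBJ2-2 made up 6 rearrangements in each library, 10.2% (3.82 to 20.8) and 5.31% (1.97 to 11.2), a ratio of 0.522 (0.140 to 1.95). TRBJ2-1 made up 14 control and 28 ATRA rearrangements, 23.7% (13.6 to 36.6) and 24.8% (17.1 to 33.8). With rearrangements 1 base apart joined, TRBJ2-1 and TRBJ2-7 tied in control at 10 of 55 each, so there TRBJ2-1 no longer led. With each deposited clonotype counted once, which also separates cells by their alpha chain, TRBJ2-2 had 6 of 62 in control and 6 of 118 in ATRA, a ratio of 0.525 (0.140 to 1.97). No member differed 2-fold over rearrangements with at least 10 of them, since TRBJ2-4 had 7 in all.

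Of control cells 71.4% (59.4 to 81.6) carried any TRBJ2 segment, and of ATRA cells 64.2% (55.9 to 71.9) did, a ratio of 0.899 (0.632 to 1.29). Over rearrangements the shares were 69.5% (56.1 to 80.8) and 60.2% (50.5 to 69.3). The share with a TRBJ1 segment was 31.4% in control (20.9 to 43.6) and 39.9% in ATRA (31.9 to 48.2). The 2 clusters add to more than all cells because 2 control and 6 ATRA cells carried a chain of each. The TRBJ1 segment nearest in use to TRBJ2-1 over both libraries was TRBJ1-1, with 14.3% and 15.5%, a summed distance of 30.6 percentage points. For TRBJ2-2 it was TRBJ1-6, with 7.14% and 6.76%, and for TRBJ2-4 it was TRBJ1-3, with 1.43% and 4.05%. TRBJ1-3 thus had the same single control cell count as TRBJ2-4 and fewer ATRA cells.

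The next question was how far single clones carried the use of a segment. TRBJ2-4 in ATRA depended most on 1 clone, and TRBJ2-2 hardly repeated. TRBJ2-1 was spread over many rearrangements, several of which coded for 1 protein sequence. The 13 ATRA cells with TRBJ2-4 held 6 rearrangements, and the TRBV5 one shown above held 8 of them, 61.5% (31.6 to 86.1). The other 5 were in 1 cell each. Without this clone TRBJ2-4 was left in 5 of 141 ATRA cells, 3.55% (1.16 to 8.08), still above the 1 of 70 in control, and the ratio was 2.48 (0.278 to 117) in place of 6.15. The comparison was added after the values were seen, and its control side rests on a single cell.

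The TRBV5 and TRBJ2-4 clone was well covered by RNA molecules. Its 8 cells held 86 UMIs, 2 to 24 per cell with a median of 9, and all 8 had an alpha chain. The productive alpha chain was TRAV6-6 with TRAJ39 in 7 of the 8 cells and in no other ATRA cell. The eighth cell carried TRAV3-4 with TRAJ57 and was given another deposited clonotype number. A non-productive TRAV12D-2 and TRAJ16 contig was found in 6 of the 8 cells, the eighth cell included, and in 1 other ATRA cell. The single control cell with TRBJ2-4 used TRBV19 and had 2 UMIs.

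TRBJ2-1 had the most repeated rearrangements. In control, 21 cells held 14 rearrangements, of which 3 were in 2 or more cells and together in 11 cells. In ATRA, 45 cells held 28 rearrangements, of which 9 were repeated and together in 26 cells. The largest held 6 control cells, 28.6% of the segment (11.3 to 52.2), and 8 ATRA cells, 17.8% (8.0 to 32.1). Without them TRBJ2-1 was still used by 15 of 64 control cells, 23.4%, and 37 of 140 ATRA cells, 26.4%, a ratio of 1.13 (0.604 to 2.21). The share left was above that of TRBJ2-7 in both libraries. Of the 6 control cells, 3 had a productive alpha chain, TRAV9-2 with TRAJ31, also found in 1 other control cell. Of the 8 ATRA cells, 6 had TRAV21-DV12 with TRAJ53, also found in 7 other ATRA cells, and 1 had TRAV14D-3-DV8 with TRAJ56. These 8 cells were given 3 deposited clonotype numbers. Neither group of cells was thus shown to be 1 clone.

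Part of TRBJ2-1 was 1 CDR3 protein sequence written in several nucleotide forms. It spans 45 bases and was found as 10 rearrangements with 9 nucleotide sequences, on TRBV26 or TRBV14, in 9 control and 14 ATRA cells. The forms differed at 5 positions, the first at base 13 and the last at base 27 of the CDR3, all before the shared J end. Of the 10, 5 were found in control only, 4 in ATRA only and 1 in both. The forms found in a single cell had 2 to 4 UMIs. Several TRBV26 forms of 1 library differed by 1 base. With such neighbours joined, TRBJ2-1 had 10 control rearrangements in place of 14. Whether each form was a separate joining event was not tested. Forms from the cells with most copies show where they differ.
TRBV26, 8 ATRA cells: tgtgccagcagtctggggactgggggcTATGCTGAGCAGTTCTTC
TRBV26, 3 control cells: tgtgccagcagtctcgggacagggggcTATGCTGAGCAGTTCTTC
TRBV14, 2 ATRA cells: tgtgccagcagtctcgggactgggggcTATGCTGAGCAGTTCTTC
TRBV14, 2 control cells: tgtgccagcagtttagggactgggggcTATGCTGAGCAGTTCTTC
TRBV26, 2 ATRA cells: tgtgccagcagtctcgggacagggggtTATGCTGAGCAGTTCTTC
TRBV26, 1 control and 1 ATRA cell: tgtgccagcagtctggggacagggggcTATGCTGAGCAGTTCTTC
This protein sequence held 42.9% of the control cells and 31.1% of the ATRA cells with TRBJ2-1. With all its forms left out, TRBJ2-1 remained in 13 of 63 cells in control, 20.6% (11.5 to 32.7), and in 31 of 135 in ATRA, 23.0% (16.2 to 31). The ratio was then 1.11 (0.566 to 2.32). The TRBV29 rearrangement in 6 control cells is not 1 of these forms. The share of TRBJ2-1 with both left out was not computed and would be lower in control.

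TRBJ2-2 was made of single cells apart from 1 rearrangement. The 7 control cells held 6 rearrangements and the 6 ATRA cells held 6. The repeated one, with TRBV5 in 2 control cells, had 1 UMI in each cell and the same alpha chain, TRAV7-3 with TRAJ27, in both. Leaving out the largest rearrangement of each library gave 5 of 68 control and 5 of 148 ATRA cells, a ratio of 0.459 (0.106 to 2.00). The lower ATRA share of TRBJ2-2 thus did not rest on 1 clone, but on 7 against 6 cells.

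The remaining segments differed in the same respect. TRBJ2-7 had 10 control cells with 10 rearrangements, and 19 ATRA cells with 14, of which the TRBV13-1 one held 5 cells, 26.3% (9.15 to 51.2). Those 5 cells held 69 UMIs, 7 to 30 per cell, and were given 5 deposited clonotype numbers. A productive alpha chain was found in 4 of them, and TRAV5D-4 with TRAJ37 in 3. Differing TRAV21-DV12 and TRAJ53 chains, also found in other ATRA cells, were in 1 cell each. The 5 cells were thus not shown to be 1 clone. TRBJ2-3 had 6 control cells with 5 rearrangements and 8 ATRA cells with 6, the largest of 2 cells each time. TRBJ2-5 had as many rearrangements as cells in both libraries, 5 in control and 8 in ATRA.

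**Figure D2:**
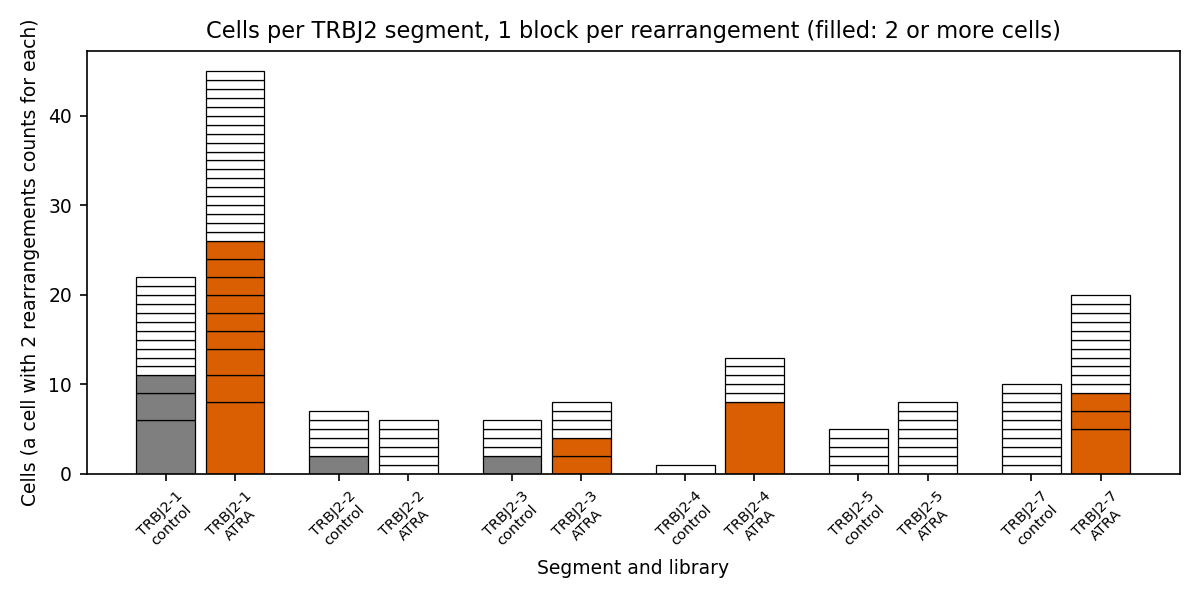
Cells per TRBJ2 segment and library, stacked with 1 block per rearrangement; filled blocks are rearrangements found in 2 or more cells (grey for control, orange for ATRA) and open blocks those in 1 cell. A cell with 2 rearrangements of a segment counts for each, which adds 1 to TRBJ2-1 in control and 1 to TRBJ2-7 in ATRA. The filled 8-cell block makes up most of the TRBJ2-4 ATRA column, while TRBJ2-5 has open blocks only.

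Rearrangements found in both libraries were all of TRBJ2-1. Of the 107 distinct TRBJ2 rearrangements, 2 occurred in both, and no cell barcode was shared by the libraries. The TRBV29 one shown first above was in 6 control cells with 25 UMIs and in 1 ATRA cell with 13 UMIs. The TRBV26 one, the last of the 6 forms above, was in 1 cell of each library, with 3 and 8 UMIs. By protein sequence there were also 2 shared CDR3s, to which these belong. A test of whether this exceeds the sharing of other segments was not made, since TRBJ2-1 also held the most rearrangements.

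CDR3 length was compared next, over distinct rearrangements so that clones did not weigh. Lengths ran from 11 to 17 amino acids, and TRBJ2-7 had the shortest mean. The mean was 14.5 amino acids for TRBJ2-1 (SD 1.01, n = 40), 14.5 for TRBJ2-2 (SD 1.24, n = 12), 14.3 for TRBJ2-3 (SD 1.35, n = 11) and 14.4 for TRBJ2-4 (SD 1.27, n = 7). It was 13.7 for TRBJ2-5 (SD 1.25, n = 13) and 13.1 for TRBJ2-7 (SD 1.30, n = 24). All 107 averaged 14.1 (SD 1.29), against 13.8 (SD 1.36) for 62 TRBJ1 rearrangements. The widest gap between these means, 14.5 against 13.1, was slightly larger than the SD within those segments.

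TRBJ2-1 lengths had the smallest SD of the 6 segments. Of its 40 rearrangements, 19 were 15 amino acids long, and 1 was shorter than 13. Those 19 include 10 forms of the 1 protein sequence above and 2 forms of another, so the peak at 15 rests largely on repeats. Over 30 distinct protein CDR3s of TRBJ2-1 the mean was 14.3 and the SD 1.12, still the smallest. Of the 24 TRBJ2-7 rearrangements, 4 were 15 long and none longer, while 8 were 11 or 12 long. TRBJ2-4 lengths ran from 13 to 17, with 4 of 7 at 14. By library, TRBJ2-7 averaged 13.7 in control (SD 1.34, n = 10) and 12.7 in ATRA (SD 1.14, n = 14), a difference below the SD of the control rearrangements. TRBJ2-1 averaged 14.6 in control (SD 0.852, n = 14) and 14.4 in ATRA (SD 1.10, n = 28).

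The mean length went broadly with the length of the J segment in RefSeq. TRBJ2-7 is the shortest of the 6, with 47 bases, and TRBJ2-2 the longest, with 51, while TRBJ2-3, TRBJ2-4 and TRBJ2-5 have 49 each and TRBJ2-1 has 50. Among the 3 segments of 49 bases the means still ranged from 13.7 to 14.4. The TRBJ1 segments, of 48 to 53 bases, had means from 13.5 for TRBJ1-5, with 4 rearrangements, to 14.3 for TRBJ1-6, with 11. The bases of the CDR3 before the kept J end averaged 23.0 for TRBJ2-2 and 24.4 to 26.3 for the other 5 segments. TRBJ2-7 stood at 25.2 (SD 3.81), within the range of the other segments, while its shared J end was the shortest.

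**Figure D3:**
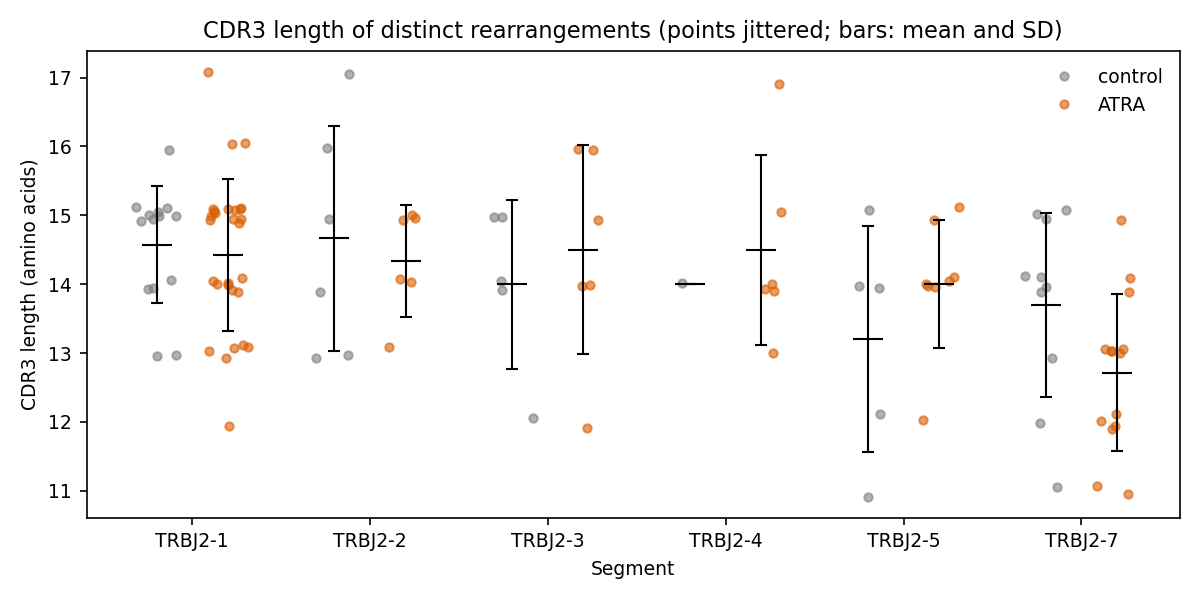
CDR3 length in amino acids of each distinct rearrangement, by TRBJ2 segment, for control (grey) and ATRA (orange), with points jittered and bars at the mean and 1 SD; a rearrangement found in both libraries is drawn in each. TRBJ2-7 reaches down to 11 and no higher than 15, while most TRBJ2-1 points lie at 14 and 15.

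The shared J end was whole in most rearrangements, which follows largely from the 75% rule that defines it. The whole shared end was present in 33 of 40 rearrangements of TRBJ2-1, 10 of 12 of TRBJ2-2, all 11 of TRBJ2-3, all 7 of TRBJ2-4, 10 of 13 of TRBJ2-5 and 18 of 24 of TRBJ2-7. The rule for the shared end sets a floor under these shares, so segments were also compared at 15 bases, the shortest shared end. At least 15 bases were kept by 39 of 40 rearrangements of TRBJ2-1, 97.5% (86.8 to 99.9), and by 18 of 24 of TRBJ2-7, 75% (53.3 to 90.2). The 4 other segments kept 15 bases in all of their 12, 11, 7 and 13 rearrangements, with lower limits of 73.5%, 71.5%, 59.0% and 75.3%. TRBJ2-7 was therefore the only member with several rearrangements under 15 bases. The 15 bases are its whole shared end and only part of the end of the others.

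Losses within the shared end, limited by the same rule, were short with few exceptions. The mean was 0.475 bases for TRBJ2-1 (SD 1.41, n = 40), 0.50 for TRBJ2-2 (SD 1.45, n = 12), 0.308 for TRBJ2-5 (SD 0.630, n = 13) and 0.833 for TRBJ2-7 (SD 1.99, n = 24). The SD exceeded the mean each time because most rearrangements had lost none. By library, TRBJ2-7 kept 15 bases in 6 of 10 control and 12 of 14 ATRA rearrangements, 60.0% (26.2 to 87.8) and 85.7% (57.2 to 98.2), with overlapping intervals. The CDR3s with the largest losses from the shared end are set beside whole ones.
TRBJ2-1 with TRBV16, whole end, 1 control cell: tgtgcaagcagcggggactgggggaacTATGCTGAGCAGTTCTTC
TRBJ2-1 with TRBV13-1, 8 bases lost, 1 ATRA cell: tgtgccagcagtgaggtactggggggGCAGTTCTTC
TRBJ2-2 with TRBV19, whole end, 1 ATRA cell: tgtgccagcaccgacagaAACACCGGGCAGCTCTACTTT
TRBJ2-2 with TRBV1, 5 bases lost, 1 control cell: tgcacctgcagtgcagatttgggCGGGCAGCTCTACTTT
TRBJ2-5 with TRBV1, whole end, 1 ATRA cell: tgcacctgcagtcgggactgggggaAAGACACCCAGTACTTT
TRBJ2-5 with TRBV12-2+TRBV13-2, 2 bases lost, 1 ATRA cell: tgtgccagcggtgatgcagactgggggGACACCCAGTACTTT
TRBJ2-7 with TRBV16, whole end, 1 ATRA cell: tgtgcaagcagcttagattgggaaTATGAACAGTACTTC
TRBJ2-7 with TRBV13-3, 9 bases lost, 1 ATRA cell: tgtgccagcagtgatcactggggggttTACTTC
The last one kept 6 bases of TRBJ2-7, coded for 11 amino acids and rested on 2 UMIs. The TRBJ2-1 form with 8 bases lost coded for 12 amino acids and had 8 UMIs.

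**Figure D4:**
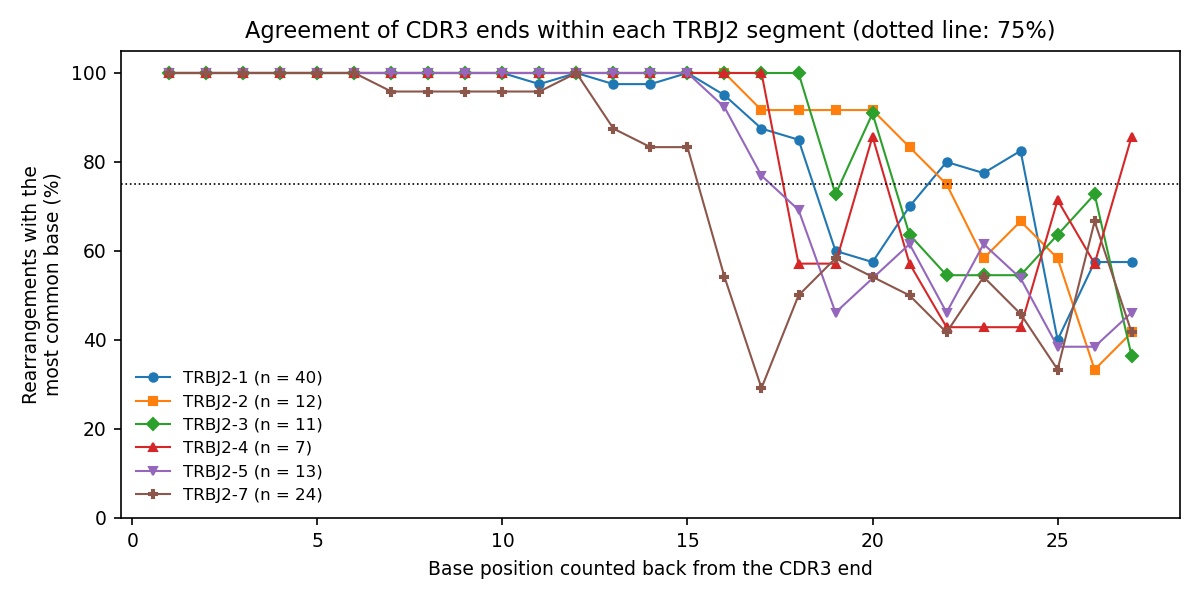
Share of distinct rearrangements of each TRBJ2 segment that carried the most common base, in percent, against the position counted back from the last base of the CDR3; the dotted line is the 75% level that ends the shared J end. All 6 segments stay above 80% for the last 15 bases, and TRBJ2-7 drops below the line at base 16, before the other segments.

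TRBV partners of the segments were broad, with TRBV26 leading through TRBJ2-1. The 107 TRBJ2 rearrangements used 20 TRBV names, 15 in control and 19 in ATRA. TRBV26 was in 14 of them, in 10 control and 17 ATRA cells, the fused name TRBV12-2+TRBV13-2 in 13, and TRBV5, TRBV13-1, TRBV19 and TRBV29 in 10 each. TRBJ2-1 was joined to 14 TRBV names. TRBV26 was in 9 of its 40 rearrangements (7 control and 15 ATRA cells), TRBV29 in 6 (7 and 7 cells) and TRBV14 in 4 (2 and 5 cells). The TRBV26 rearrangements of TRBJ2-1 include the forms of the 1 protein sequence above, so they are not independent of it.

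The smaller segments had other leading partners, each from few rearrangements. TRBJ2-2 was joined most often to TRBV5 in 3 of 12 rearrangements (3 control and 1 ATRA cells), then to TRBV19, TRBV26 and TRBV29 in 2 each. TRBJ2-3 was joined to TRBV13-1 in 4 of 11 (4 and 1 cells), to the fused name in 3 (1 and 3 cells) and to TRBV2 in 1 (2 ATRA cells). TRBJ2-4 was joined to the fused name in 2 of 7 (2 ATRA cells), and to TRBV5 (8 ATRA cells) and TRBV14 (1 ATRA cell) in 1 each. No TRBV name held more than 4 rearrangements of any of these segments.

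TRBV26, the leading partner of TRBJ2-1, was also found with TRBJ2-5 and not with TRBJ2-7. TRBJ2-5 was joined to TRBV1 in 4 of 13 rearrangements (1 control and 3 ATRA cells), and to the fused name and TRBV26 in 3 each (2 and 1 cells both). TRBJ2-7 was joined to TRBV15 (1 and 4 cells), TRBV19 (2 and 2 cells) and TRBV5 (2 and 2 cells) in 4 of 24 each, and to TRBV26 in none. Against TRBJ1, TRBV26 was in 14 of 107 TRBJ2 rearrangements, 13.1% (7.34 to 21), and in 1 of 62 TRBJ1 rearrangements, 1.61% (0.0408 to 8.66). TRBV20 was in 0 of 107 (exact upper limit 3.39%) and in 6 of 62, 9.68% (3.63 to 19.9). These 2 names were picked from 21 after their values were seen, and 9 of the 14 TRBV26 rearrangements were of TRBJ2-1.

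**Figure D5:**
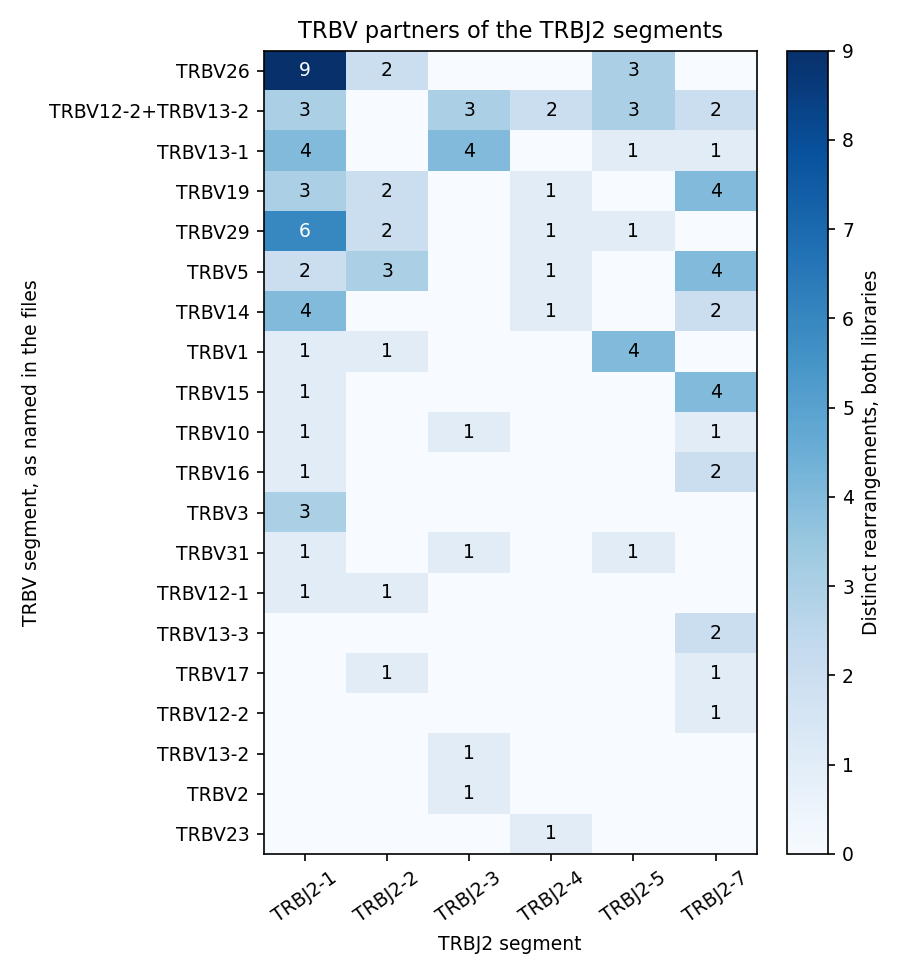
Number of distinct rearrangements over both libraries for each pair of TRBV name (rows) and TRBJ2 segment (columns), with the count in each cell and darker blue for more. TRBV26 with TRBJ2-1 is the most frequent pair with 9, and TRBV29 with TRBJ2-1 follows with 6.

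Before the kept J end, TRBJ2 rearrangements shared short runs of bases that TRBJ1 rearrangements lacked. Runs of 6 bases were counted on the coding strand after the first 9 CDR3 bases and before the kept J end. V bases past the first 9 can lie in that stretch, so a run may come partly from the V segment. The unequal use of TRBV26 by the clusters was not taken into account. The run ctgggg was in 38 of 107 TRBJ2 rearrangements, 35.5% (26.5 to 45.4), and in 0 of 62 TRBJ1 rearrangements (exact upper limit 5.78%). The run actggg was in 31, 29.0% (20.6 to 38.5), and again in 0 of 62. It was found with all 6 segments, in 15 rearrangements of TRBJ2-1, 1 of TRBJ2-2, 2 of TRBJ2-3, 2 of TRBJ2-4, 6 of TRBJ2-5 and 5 of TRBJ2-7. Those of TRBJ2-1 include several forms of the 1 protein sequence above. These runs overlap each other in 5 of their 6 bases and were chosen by their frequency in these sequences, so their counts are a description.

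Another run was about as common in both clusters. The run acaggg was in 24 TRBJ2 rearrangements, 22.4% (14.9 to 31.5), and 15 TRBJ1 rearrangements, 24.2% (14.2 to 36.7). The run ggacag was in 22 and 16, 20.6% (13.4 to 29.5) and 25.8% (15.5 to 38.5). The germline TRBD1 and TRBD2 sequences were not used here, so no run was assigned to a D segment. The sequences above show both kinds, with actggg in the largest ATRA rearrangement of TRBJ2-1 and acaggg in the largest control one.

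Depth and pairing were lower in control for most TRBJ2 segments. TRBJ2 contigs had a median of 4 UMIs in control (quartiles 2 and 5) and 7 in ATRA (5 and 10). By segment the median was 4 against 7 for TRBJ2-1, 3 against 4.5 for TRBJ2-2, 3.5 against 6 for TRBJ2-3, 3 against 6.5 for TRBJ2-5 and 4 against 10.5 for TRBJ2-7. The only control contig of TRBJ2-4 had 2 UMIs and its 13 ATRA contigs a median of 9. Of the UMIs of productive TRB contigs, TRBJ2-4 held 0.649% in control and 10.1% in ATRA, and TRBJ2-2 held 7.79% and 2.25%. Of 51 control contigs 16 had 1 or 2 UMIs, against 7 of 100 in ATRA.

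A productive alpha chain was found beside TRBJ2 for 20 of 50 cells in control, 40.0% (26.4 to 54.8), and for 76 of 95 in ATRA, 80.0% (70.5 to 87.5). For TRBJ2-7 this was so in control for 2 of 10, 20.0% (2.52 to 55.6), and in ATRA for 15 of 19, 78.9% (54.4 to 93.9). TRBJ2-5 showed no such gap, with 3 of 5 and 5 of 8 cells. TRBJ1 cells were paired in 54.5% (32.2 to 75.6) and 83.1% (71.0 to 91.6). The part of depth in the use of any segment was not tested. No TRBJ2 contig had a C segment name.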

How the data were processed

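The 2 receptor libraries were analysed, 1 of control and 1 of ATRA-treated mice. Per the submitters' processing notes, reads were handled with bcl2fastq 2.20.0 and Cell Ranger 3.1.0 on mouse build GRCm38. Per the file headers, the authors deposited for each contig a count of UMIs and a count of reads, without normalization, its length in bases, its V, J and C names, its CDR3 and a clonotype number. Every contig marked productive with chain TRB was used, with no UMI minimum and no doublet caller. Cells with several TRB (4 control, 13 ATRA) counted for each segment they carried.

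Shares were given with Clopper-Pearson intervals and ratios with exact conditional intervals. In ratios a count of 0 was set to a limit of 3 counts, which makes such a ratio a bound only. A size rule of 2-fold was applied to segments whose cells in control and ATRA summed to 10 or more. CDR3 length and J ends were taken over rearrangements pooled from both libraries. Germline J and D sequences were not used here, so the shared CDR3 end stood in for the J segment, with the 75% level chosen after the base profile was seen. The interval and the trimming count were tested on simulated data with independent cells, random bases and mostly untrimmed ends. Clones and shared runs of bases were not simulated, so the tests do not cover them.

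Named items were all 6 segments, TRBJ1 and its nearest segments, the 3 leading TRBV names per segment, the largest rearrangement per segment and library, and rearrangements in both libraries. CDR3s that lost most, compared TRBV names and base runs were picked from the values. The members and lists were chosen with earlier results of these data known. Work was done in Python 3.11.15 with pandas 2.3.3, numpy 2.4.6, scipy 1.17.1 and matplotlib 3.10.9.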

Additional observations from a re-analysis of the deposited data

Results flagged for a closer look

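Non-productive TRB contigs entered no comparison of segment use. Per receptor cell they were more frequent in ATRA than in control for 4 of the 6 TRBJ2 segments, which is what singled them out. TRBJ2-1 had 19.4 such contigs per 100 receptor cells in ATRA (exact Poisson 95% interval 13.2 to 27.5) and 8.11 in control (2.98 to 17.6). TRBJ2-2 had 1.88 against 1.35, TRBJ2-5 had 6.25 against 2.70 and TRBJ2-7 had 12.5 against 12.2. TRBJ2 together had 53.1 (42.4 to 65.7) against 40.5 (27.4 to 57.9). TRBJ1 also had more in ATRA, 21.25 (14.7 to 29.7) against 14.9 (7.42 to 26.6), so the direction was not particular to TRBJ2. All these intervals overlap between the libraries, and the difference was not tested. Most of the non-productive TRBJ2 contigs had no V name, 26 of 30 in control and 65 of 85 in ATRA. Their median was 1.5 and 3 UMIs. The TRBJ2 share of non-productive TRB contigs was 71.4% in both libraries.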

How the results depend on the processing

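Of 237 alternative values, 218 stayed within the main value's interval (1 SD for lengths and losses, 1.5 times for counts) and 19 did not. The ATRA to control ratio stayed below 1 under all 8 alternatives for TRBJ2 (0.866 to 0.948), TRBJ2-2 (0.349 to 0.553), TRBJ2-3 (0.525 to 0.992) and TRBJ2-5 (0.413 to 0.977). It changed sides of 1 for TRBJ2-1 (0.966 to 1.34; below 1 under 3 of 8) and TRBJ2-7 (0.644 to 1.86; above 1 under 2 of 8), within intervals that include 1. For TRBJ2-4 it was 2.48 to 5.99 under the 7 alternatives that left a control cell. With the largest rearrangement of each library left out, TRBJ2-4 had 3.55% of ATRA cells and 0% of control cells, where its only cell was the one removed. The value of 0.816 is then a lower bound of the ratio at the 3-count limit and gives no direction. At 3 UMIs TRBJ2-4 had 0 of 48 control cells and 11 of 131 ATRA cells, 8.40%. Its ratio there, 1.34, is again only a lower bound at the 3-count limit. TRBJ2-7 had 6.67% of paired control cells, and joining rearrangements 1 base apart, an alternative chosen after seeing the data, gave TRBJ2-1 18.2% of control rearrangements, the same as TRBJ2-7. The 2 segments past 2-fold became 1 at 2 UMIs, in paired cells, without the largest rearrangement and with 1-base neighbours joined, and 0 at 3 UMIs, over rearrangements and over deposited clonotypes. Fewer segments reached 10 counts in all of these except at 2 UMIs. At 3 UMIs TRBJ2-4 did reach 10 counts and fell out only through the limit set for its 0 control cells, so a smaller gap was not shown. An end shared by more than 50% was also chosen after seeing the data. Bases missing from it averaged 4.60 for TRBJ2-1, 2.83 for TRBJ2-2, 4.55 for TRBJ2-3 and 2.00 for TRBJ2-4. These longer ends, of 24, 25, 26 and 21 bases, all open with g. Without germline sequences their first bases could not be told from bases between V and J, so these values do not measure J trimming. In whole codons of the 75% end, the mean loss was 2.00 for TRBJ2-4 and TRBJ2-5, whose end of 17 bases is not a multiple of 3. The planned match to germline D segments was not run because the sequence was not used here. No paired analysis was possible because each treatment had 1 library. With 1 to 21 control cells per segment, only large differences could be seen at this depth.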

Other observations

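A pair of CDR3s chosen after their values were seen had the same TRBV5 start and different TRBJ2 ends. Their first 30 bases were identical, and among 789 pairs of rearrangements with 1 TRBV name and different J segments the next longest shared start was 23 bases.
TRBJ2-2, 2 control cells: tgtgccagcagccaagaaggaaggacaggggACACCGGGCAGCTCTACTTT
TRBJ2-1, 2 ATRA cells: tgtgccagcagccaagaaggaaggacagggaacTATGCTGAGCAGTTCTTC
The TRBJ2-2 form rested on 2 UMIs in all and the TRBJ2-1 form on 12.

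TRBJ2-4 had 1 productive cell in control but 6 non-productive contigs there, 8.11 per 100 receptor cells (2.98 to 17.6), against 11 in ATRA, 6.88 (3.43 to 12.3). The order of the libraries for TRBJ2-4 was thus the opposite of that of productive cells, with overlapping intervals.

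There were 7 pairs of TRBJ2 rearrangements of 1 library and 1 TRBV name that differed by 1 base. Of these, 6 were TRBV26 with TRBJ2-1, 5 of them in control, and 1 was TRBV19 with TRBJ2-7 in ATRA.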
